A study of Mus musculus with 6 samples.

Results

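The genes described here carry the interferon signal from outside a cell to its first kinases. They are the type I receptor chains Ifnar1 and Ifnar2, the type II receptor chains Ifngr1 and Ifngr2, the ligand Ifnb1, and the Janus kinases Jak1, Jak2, Jak3 and Tyk2. They were taken by symbol from the deposited table, which held all 9 among its 22063 genes, and 8 had enough reads to be tested, Ifnb1 being the exception. RNA sequencing covered 6 samples of mouse macrophages, 3 of CAR-Trem2-Ms and 3 of CAR-Ms. CAR-Trem2-Ms carried a chimeric antigen receptor brought in by lentivirus, had the genotype entry "TERM2+", were induced with VD3 at 1 µM for 24 h and were sorted by flow cytometry. CAR-Ms carried the receptor from the same lentivirus step and had the genotype entry WT. Their own treatment entry names neither VD3 nor a sort, but a protocol shared by all samples names VD3, so the labels leave it unclear if CAR-Ms had it. All were cultured in DMEM over 7 days; M-CSF, a growth factor for macrophages, was present at 20 ng/mL, and their tissue is given as skin. For the mouse strain, the target of the receptor, its promoter and the origin of each replicate the labels give no entry. Trem2 status, the sort and possibly VD3 cannot be told apart in this comparison, and the p-values rest on the scatter among these samples, part or all of which could be technical.

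Type I interferons such as the product of Ifnb1 bind a receptor made of an Ifnar1 and an Ifnar2 chain, with Tyk2 held on Ifnar1 and Jak1 on Ifnar2. Interferon gamma binds Ifngr1, which holds Jak1, together with Ifngr2, which holds Jak2. The kinases then phosphorylate STAT proteins, which enter the nucleus and switch on interferon-stimulated genes; macrophages both make type I interferon and respond to either type. Jak3 has no part in either receptor and works with the common gamma chain Il2rg of lymphocyte cytokine receptors.

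In CAR-Trem2-Ms, Tyk2, Jak3 and Ifnar2 were higher than in CAR-Ms, and Jak1 and Ifngr1 were lower. Ifnar1, Ifngr2 and Jak2 did not pass the test, and Ifnb1 had 1 read in all. Counting reads per gene with edgeR's quasi-likelihood test and TMM scaling factors, 5 of the 8 tested members had a Benjamini-Hochberg adjusted p under 0.05, against 81.1% of all 11402 genes tested. The CPM values (counts scaled to a common library size with those factors) of the groups did not overlap in the same 5 members, against 81.8% of all genes. Of the members, 3 rose where 40.9% of all genes did, and 2 fell where 40.1% did, so neither the number of calls nor their balance sets the members apart. The median log2 fold change, CAR-Trem2-Ms over CAR-Ms, was 0.03 over the members and 0.03 over all genes.

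Promoters of 3 members are shown because the results turn on them: Ifnb1, which was close to unread, and Ifnar2 and Ifnar1, chains of a single receptor of which the first rose and the second did not pass. The windows are those of RefSeq on GRCm38.p6 and run from 250 bases before to 50 after the transcript start. Both strands were searched for 4 motifs: a short interferon-stimulated response element GAAANNGAA, the gamma-activated site TTCNNNGAA bound by STAT dimers, the interferon regulatory factor core AANNGAAA, which overlaps GAAANNGAA where a further A follows it, and a short NF-kB site GGAANNNCC. Matches stand in capitals.
Ifnb1 (chr4:88522745-88523044, minus strand): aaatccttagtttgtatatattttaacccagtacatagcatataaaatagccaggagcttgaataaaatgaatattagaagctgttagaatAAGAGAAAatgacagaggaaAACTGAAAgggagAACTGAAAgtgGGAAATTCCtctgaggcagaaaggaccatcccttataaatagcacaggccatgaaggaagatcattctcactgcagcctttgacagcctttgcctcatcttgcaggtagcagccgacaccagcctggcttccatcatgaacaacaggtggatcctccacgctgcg
Ifnar2 (chr16:91372533-91372832, plus strand): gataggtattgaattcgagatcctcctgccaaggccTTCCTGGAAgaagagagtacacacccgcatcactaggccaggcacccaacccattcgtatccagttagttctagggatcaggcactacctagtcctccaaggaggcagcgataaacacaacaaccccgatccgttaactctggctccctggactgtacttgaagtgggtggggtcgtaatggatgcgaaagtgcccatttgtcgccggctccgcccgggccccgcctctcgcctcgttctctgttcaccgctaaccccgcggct
Ifnar1 (chr16:91484965-91485264, plus strand): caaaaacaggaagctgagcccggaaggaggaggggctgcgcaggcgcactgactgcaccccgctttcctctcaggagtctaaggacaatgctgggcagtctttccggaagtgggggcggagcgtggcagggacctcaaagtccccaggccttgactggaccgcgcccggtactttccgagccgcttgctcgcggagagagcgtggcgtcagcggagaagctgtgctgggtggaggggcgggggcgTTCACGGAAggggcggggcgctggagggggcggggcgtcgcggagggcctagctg

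The Ifnb1 window held 3 interferon regulatory factor cores and, next to them, an NF-kB match that reads as one on either strand, the arrangement known as the virus-inducible enhancer of this gene. Ifnar2 and Ifnar1 each held 1 gamma-activated site. Among the other members, Ifngr2 held 1 NF-kB match, Jak3 held 1 short response element and 1 NF-kB match, and the windows of Ifngr1, Jak1, Jak2 and Tyk2 held none of the 4 motifs. Of all 32851 RefSeq windows, 8.56% held GAAANNGAA, 8.3% TTCNNNGAA, 23.9% AANNGAAA and 18.5% GGAANNNCC. A match describes letters, not a site or a cause, and a window without one says nothing of the factor.

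Facts of the libraries bear on every value below. Totals ran from 9804959 to 12558021 reads in CAR-Trem2-Ms and from 14204468 to 15913100 reads in CAR-Ms. Trem2, after which CAR-Trem2-Ms are named, read 191 ± 7.56 CPM in CAR-Trem2-Ms and 76.6 ± 2.31 CPM in CAR-Ms (SD, n = 3 each). This was in the direction of the labels. Of 12 macrophage markers, 8 were tested, of which 6 were higher and 2 lower, where 40.9% of all genes were higher and 40.1% lower. Among the higher ones, C1qc had enough reads for the test only through CAR-Trem2-Ms (13, 8 and 16 reads, against 1, 3 and 3 in CAR-Ms). The list summed to between 3925 and 3950 CPM in CAR-Trem2-Ms and between 3453 and 3478 CPM in CAR-Ms. Lyz2 averaged 1776 CPM in CAR-Trem2-Ms and 1315 CPM in CAR-Ms and Csf1r 862 CPM in CAR-Trem2-Ms and 1264 CPM in CAR-Ms, while Fcgr1 was 3.68-fold and Cd14 3.02-fold higher. Mertk, Mrc1 and C1qa stayed at 12 reads or fewer in every sample, and the part of these markers in the members' values was not tested. The scale matters for direction: over all genes the log2 fold change had a median of 0.03 under TMM, 0.26 under upper quartile scaling, -0.10 under total counts, 0.00 after the GC and length correction and -0.63 on log2(TPM + 1), where TPM is the authors' length-scaled value. A fall or rise on one scale is therefore read against that median, and in bulk RNA fewer cells of a type and less RNA per cell cannot be told apart. On log2(TPM + 1), 2 of 7 macrophage markers were higher and 4 lower, where 17.5% of all genes were higher and 64.2% lower.

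**Figure D1:**
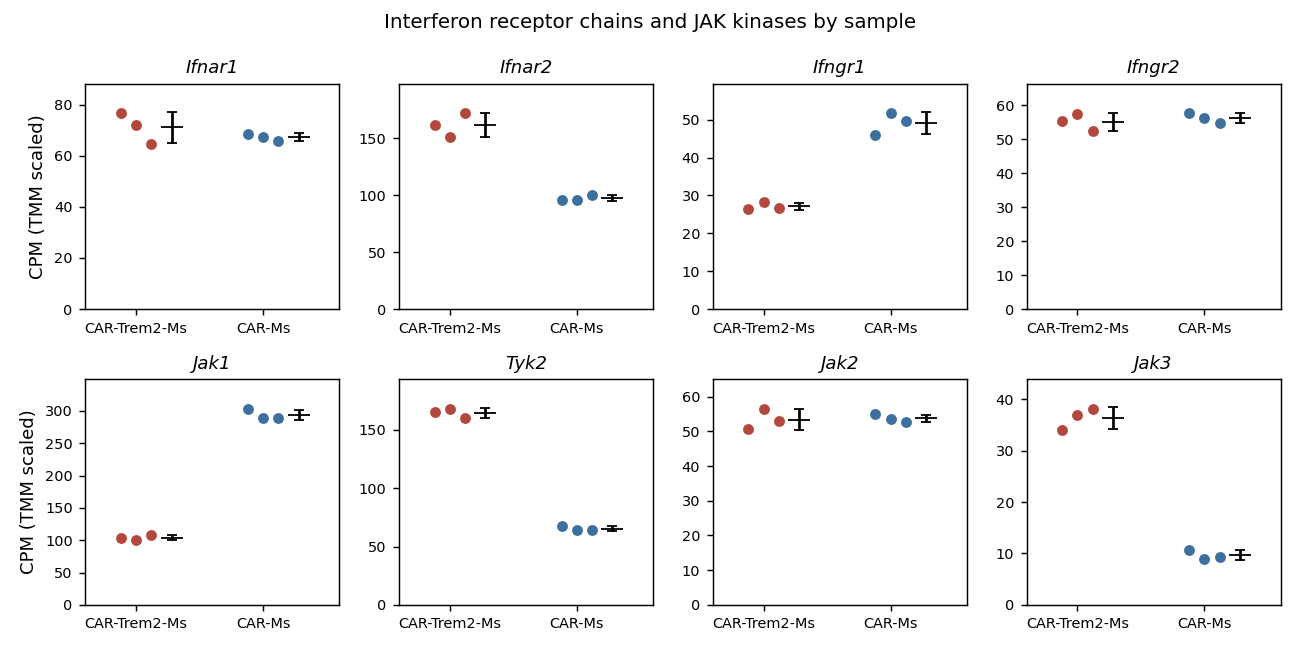
CPM of each tested member (vertical axis, from 0) in the 3 CAR-Trem2-Ms (red, left) and 3 CAR-Ms samples (blue, right); points are samples, and bars are the mean ± SD. The groups stand apart for Ifnar2, Ifngr1, Jak1, Tyk2 and Jak3 and overlap for Ifnar1, Ifngr2 and Jak2.

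The ligand was close to absent. Ifnb1 (ENSMUSG00000048806, chromosome 4, 88522025 to 88522774, minus strand, GRCm38), which encodes interferon beta, had 1 read in CAR-Trem2-Ms replicate 1 and 0 in each of the other 5 samples. Over the CAR-Ms group, a count of 0 allows up to 3 counts, a floor of 0.0672 CPM on the summed totals. In CAR-Trem2-Ms the 1 read was 0.0289 CPM on the summed totals, with a 95% counting interval that reached 0.161 CPM. These ranges overlap, so no fold change is given. Both limits reflect counting error alone, because PCR copies are not separate molecules. The deposited table nonetheless lists a log2 fold change of 5.91 for Ifnb1, since the authors' deposited table sets a mean TPM of 0 to 0.001; its adjusted p there is 0.825.

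The other interferon genes had few reads or none. Among 21 ligand genes, counting Ifnb1, only Ifng, Ifnab and Ifnb1 had any read, with 9, 5 and 1 reads in CAR-Trem2-Ms replicates 1, 2 and 3 and 0, 3 and 1 reads in CAR-Ms. No gene of the Ifna1 to Ifna16 cluster in the list, and none of Ifne, Ifnk, Ifnz, Ifnl2 and Ifnl3, had a read. Ifng, which encodes interferon gamma and was singled out after its values were seen, had 6, 3 and 1 reads in CAR-Trem2-Ms and 0 in each CAR-Ms sample. Relative to library totals, its observed rate was 4.30 times a floor of 3 counts over the CAR-Ms group, and 2.70 times without CAR-Trem2-Ms replicate 1. These rates rest on 10 and 4 reads, whose own counting error is left out, so neither value is a lower bound. T cells are a main source of interferon gamma, and 5 T cell genes (Cd3e, Cd3d, Cd3g, Cd8a and Trac) summed to between 4.69 and 8.40 CPM in CAR-Trem2-Ms and between 0.395 and 0.663 CPM in CAR-Ms. Not all T cell markers rose: Cd4 did not pass (edgeR adjusted p = 0.071). Cd2 had 6, 7 and 7 reads in CAR-Trem2-Ms and 9, 5 and 5 in CAR-Ms. Cd3e, Cd3g and Cd2 had too few reads to be tested. The part of T cells in the reads of Ifng was not tested.

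The chains of the type I receptor differed in their response. Ifnar2 (ENSMUSG00000022971, chromosome 16, 91372783 to 91405589, plus strand), the chain that binds interferon tightly and carries the docking sites for STAT proteins, read 162, 151 and 172 CPM in CAR-Trem2-Ms replicates 1, 2 and 3, against 96.0, 95.6 and 100.1 CPM in CAR-Ms. Every CAR-Trem2-Ms sample was above every CAR-Ms sample. Ifnar2 averaged 161.6 ± 10.5 CPM in CAR-Trem2-Ms and 97.2 ± 2.51 CPM in CAR-Ms (SD, n = 3 each). This was 1.67-fold higher (log2 0.74 ± 0.05 SE; adjusted p = 2.5e-14). On log2(TPM + 1) its change was -0.0015 and did not pass (adjusted p = 0.986), which lies 0.63 above the median of all genes on that scale. The authors' deposited table shows the same contrast in a single row, a log2 fold change of -0.0024 from TPM beside an adjusted p of 4.6e-43.

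Ifnar1 (ENSMUSG00000022967, chromosome 16, 91485238 to 91507441, plus strand), the chain that completes the receptor and binds Tyk2, read 76.7, 72.0 and 64.5 CPM in CAR-Trem2-Ms and 68.6, 67.4 and 65.5 CPM in CAR-Ms. The groups overlapped, with both the highest and the lowest sample among CAR-Trem2-Ms. Its log2 fold change was 0.08 ± 0.06 (SE), with a 95% interval from -0.05 to 0.21 and an adjusted p of 0.237. The call depended on the scale: 0.31 with upper quartile factors (adjusted p = 6.3e-05), 0.19 after a correction for GC content and length (adjusted p = 0.00731), -0.04 with total counts (adjusted p = 0.531) and -0.59 on log2(TPM + 1) (adjusted p = 2.1e-04). It also passed without CAR-Trem2-Ms replicate 3, at 0.15 (adjusted p = 0.0336).

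Ifngr1 (ENSMUSG00000020009, chromosome 10, 19591949 to 19610229, plus strand), the ligand-binding chain for interferon gamma, read 26.5, 28.3 and 26.7 CPM in CAR-Trem2-Ms and 46.1, 51.7 and 49.7 CPM in CAR-Ms. The groups were apart, with all CAR-Trem2-Ms samples low. Ifngr1 averaged 27.2 ± 0.963 CPM in CAR-Trem2-Ms and 49.2 ± 2.88 CPM in CAR-Ms and fell by 0.86 ± 0.08 on the log2 scale (SE; adjusted p = 1.4e-10). Under all 17 alternatives it stayed called and lower, at -1.47 to -0.63.

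Ifngr2 (ENSMUSG00000022965, chromosome 16, 91547072 to 91565623, plus strand), the signalling chain that binds Jak2, read 55.3, 57.5 and 52.3 CPM in CAR-Trem2-Ms and 57.7, 56.2 and 54.8 CPM in CAR-Ms. The groups overlapped. Its log2 fold change was -0.03 ± 0.07 (SE), with a 95% interval from -0.17 to 0.10 and an adjusted p of 0.657. It turned to 0.20 with upper quartile factors (adjusted p = 0.0071) and 0.07 after the GC and length correction (adjusted p = 0.351), and stood at -0.16 with total counts (adjusted p = 0.0309) and -0.73 on log2(TPM + 1) (adjusted p = 2.6e-05).

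Ratios taken within a sample do not move with its scaling factor, so chains of a receptor can be compared without choosing such a factor. They can still move with GC content or length, which act on genes unequally, and no ratio was computed after the GC and length correction. The reads of Ifnar2 were 2.11, 2.10 and 2.67 times those of Ifnar1 in CAR-Trem2-Ms and 1.40, 1.42 and 1.53 times in CAR-Ms. Those of Ifngr2 were 2.09, 2.03 and 1.96 times those of Ifngr1 in CAR-Trem2-Ms and 1.25, 1.09 and 1.10 times in CAR-Ms. Both ratios were higher in every CAR-Trem2-Ms sample, the first by 0.65 and the second by 0.82 on the log2 scale. For each the exact two-sided permutation p was 0.10, the smallest that 3 samples against 3 allow. After adjustment over the 5 ratios computed it was again 0.10. As Ifnar1 and Ifngr2 did not pass, the ratios largely restate the rise of Ifnar2 and the fall of Ifngr1 given above.

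**Figure D2:**
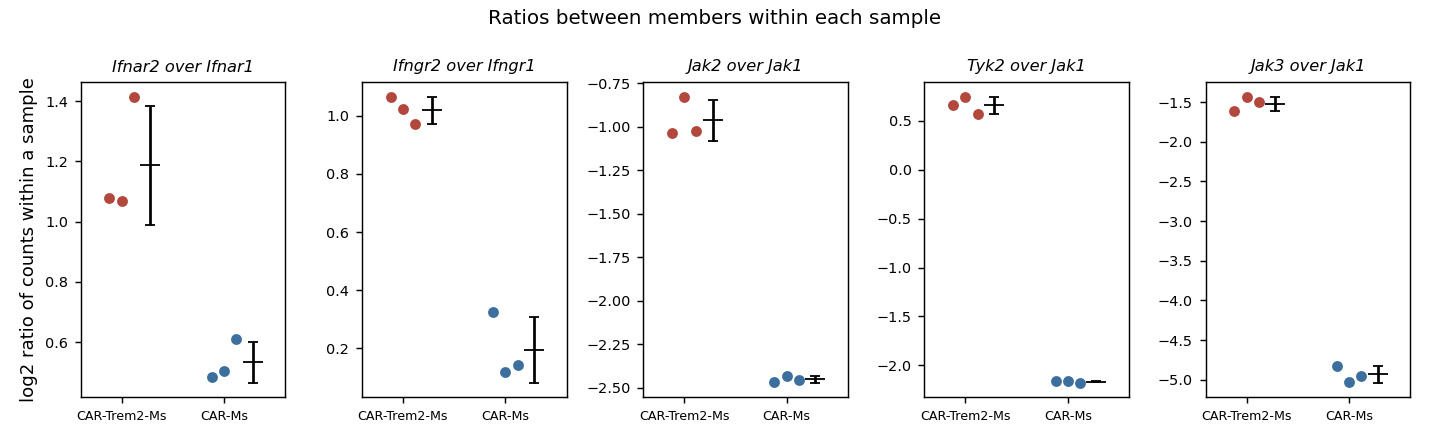
Log2 ratio of the read counts of the named pairs of members (vertical axes, which differ in range) within each CAR-Trem2-Ms (red, left) and CAR-Ms sample (blue, right), with the mean ± SD of the 3 samples. In all 5 panels every CAR-Trem2-Ms sample lies above every CAR-Ms sample.

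Most of these receptor genes lie close together. Ifnar2, Il10rb, Ifnar1 and Ifngr2 lie in this order within 192.8 kb of chromosome 16, all on the plus strand, and Il10rb encodes a chain shared by the receptors for interleukin 10 and interferon lambda. Il10rb averaged 51.2 ± 7.31 CPM in CAR-Trem2-Ms and 29.0 ± 1.81 CPM in CAR-Ms, a rise of 0.82 ± 0.09 (log2, SE; adjusted p = 3.9e-09) that did not pass on log2(TPM + 1). Along the cluster, Ifnar2 and Il10rb thus rose and Ifnar1 and Ifngr2 did not pass. The predicted gene Gm21970 shares 315 exon bases with Ifnar2 and reaches Il10rb. It had 14 reads in CAR-Trem2-Ms replicate 3 and 0 in the rest.

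The kinases moved in both directions. Jak1 (ENSMUSG00000028530, chromosome 4, 101152367 to 101265282, minus strand), the kinase that both interferon receptors use, read 103.9, 100.3 and 107.8 CPM in CAR-Trem2-Ms replicates 1, 2 and 3, against 303, 289 and 289.6 CPM in CAR-Ms. The groups were far apart. Jak1 averaged 104 ± 3.75 CPM in CAR-Trem2-Ms and 293.9 ± 8.14 CPM in CAR-Ms, and was 2.82-fold lower (log2 -1.50 ± 0.04 SE; adjusted p = 1.2e-23). Of all genes tested, 5.88% had a lower log2 fold change. Its fall was called under all 17 alternatives, at -2.14 to -1.14.

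Tyk2 (ENSMUSG00000032175, chromosome 9, 21104068 to 21131243, minus strand), the kinase of Ifnar1 and of the interleukin 12 and 23 receptors, read 165, 168 and 160.3 CPM in CAR-Trem2-Ms and 67.8, 64.3 and 64.0 CPM in CAR-Ms. All CAR-Trem2-Ms samples were high. Tyk2 averaged 164.5 ± 3.93 CPM in CAR-Trem2-Ms and 65.4 ± 2.11 CPM in CAR-Ms, a rise of 2.51-fold (log2 1.33 ± 0.05 SE; adjusted p = 1.7e-20), and 87.2% of all genes had a lower fold change. It was called higher under all 17 alternatives, at 0.59 to 1.56. An antisense gene, 1700084C06Rik, overlaps 8.07% of the exon bases of Tyk2, and without strand in the counts its reads would not be told apart.

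Jak2 (ENSMUSG00000024789, chromosome 19, 29251828 to 29313080, plus strand), which serves Ifngr2 and the receptors for GM-CSF, erythropoietin and growth hormone, read 50.6, 56.5 and 53.0 CPM in CAR-Trem2-Ms and 54.9, 53.5 and 52.8 CPM in CAR-Ms. The groups overlapped. Its log2 fold change was -0.01 ± 0.07 (SE), with a 95% interval from -0.15 to 0.13 and an adjusted p of 0.867. It turned to 0.22 with upper quartile factors (adjusted p = 0.00414) and to 0.44 after the GC and length correction (adjusted p = 1.1e-06), and was -0.75 on log2(TPM + 1) (adjusted p = 5.8e-05).

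Jak3 (ENSMUSG00000031805, chromosome 8, 71676296 to 71690575, plus strand), the partner of the common gamma chain, read 33.9, 37.0 and 38.2 CPM in CAR-Trem2-Ms and 10.7, 8.87 and 9.35 CPM in CAR-Ms. The groups were apart, all CAR-Trem2-Ms samples being high. Jak3 averaged 36.4 ± 2.17 CPM in CAR-Trem2-Ms and 9.65 ± 0.962 CPM in CAR-Ms, a rise of 3.77-fold (log2 1.91 ± 0.11 SE; adjusted p = 5.1e-15). It had the largest rise of the 8 tested members, and 94.0% of all genes had a lower fold change. Il2rg, the chain that Jak3 binds, averaged 99.5 ± 1.04 CPM in CAR-Trem2-Ms and 81.4 ± 2.94 CPM in CAR-Ms (log2 0.29 ± 0.05 SE; adjusted p = 8.1e-06). Insl3 shares 404 exon bases with Jak3 and had 0 reads in every sample.

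Some markers of T cells were higher and markers of B cells lower beside Jak3, which lymphocytes express strongly. The 5 T cell genes given above with Ifng were each under 2 CPM on average in CAR-Trem2-Ms. Over the whole list of 14 T, NK and B cell markers, 8 were tested, of which 4 rose (Cd3d, Cd247, Cd8a and Trac) and 3 fell, all B cell markers, where 40.9% of all genes rose and 40.1% fell. Among those that fell, Ms4a1 averaged 0.213 CPM in CAR-Trem2-Ms and 2.02 CPM in CAR-Ms, and Cd79a 2.40 CPM in CAR-Trem2-Ms and 4.03 CPM in CAR-Ms. Ncr1 and Klrb1c, markers of NK cells, had no read. The list summed to between 11.2 and 16.2 CPM in CAR-Trem2-Ms and between 10.3 and 13.6 CPM in CAR-Ms. Of 10 neutrophil markers 5 were tested and all of these were lower, where 40.1% of all genes were. The list summed to between 2.99 and 6.70 CPM in CAR-Trem2-Ms and between 19.0 and 35.7 CPM in CAR-Ms. The rest had too few reads, such as Mpo with 7, 6 and 2 in CAR-Trem2-Ms and 7, 0 and 9 in CAR-Ms. In both lists some genes had enough reads only through 1 group. Camp had 0, 1 and 2 reads in CAR-Trem2-Ms and 32, 15 and 15 in CAR-Ms. Cd8a had 17, 23 and 17 in CAR-Trem2-Ms and 1, 2 and 0 in CAR-Ms. Such a gene is tested only where it differs, so the share of all genes is no fair measure for these counts. The part of these cells in the values of Jak3, Jak1 or any other member was not tested.

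Within a sample, the mix of kinases was different. The reads of Tyk2 were 1.59, 1.68 and 1.49 times those of Jak1 in CAR-Trem2-Ms and 0.224, 0.223 and 0.221 times in CAR-Ms. Those of Jak2 were 0.487, 0.564 and 0.492 times those of Jak1 in CAR-Trem2-Ms and 0.181, 0.185 and 0.182 times in CAR-Ms. Tyk2 thus had more reads than Jak1 in each CAR-Trem2-Ms sample and fewer in each CAR-Ms sample. The log2 ratio of Tyk2 to Jak1 was higher by 2.83 in CAR-Trem2-Ms, that of Jak2 to Jak1 by 1.49 and that of Jak3 to Jak1 by 3.42. Each ratio was higher in 3 of 3 CAR-Trem2-Ms samples, with an exact two-sided permutation p of 0.10, the smallest possible here, and 0.10 after adjustment. All 3 ratios share Jak1 as denominator, so they are not separate results from its fall, which that of Jak2 largely restates. Per length, Jak1 made up 27.6%, 26.2% and 27.9% of the summed TPM of the 4 kinases in CAR-Trem2-Ms and 66.8%, 67.0% and 67.5% in CAR-Ms. Tyk2 made up 45.5 ± 1.38% in CAR-Trem2-Ms and 16.1 ± 0.128% in CAR-Ms, and Jak3 12.3 ± 0.566% in CAR-Trem2-Ms and 2.75 ± 0.168% in CAR-Ms (SD, n = 3 each). The share of Jak2 was 14.9 ± 0.914% in CAR-Trem2-Ms and 14.0 ± 0.348% in CAR-Ms.

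**Figure D3:**
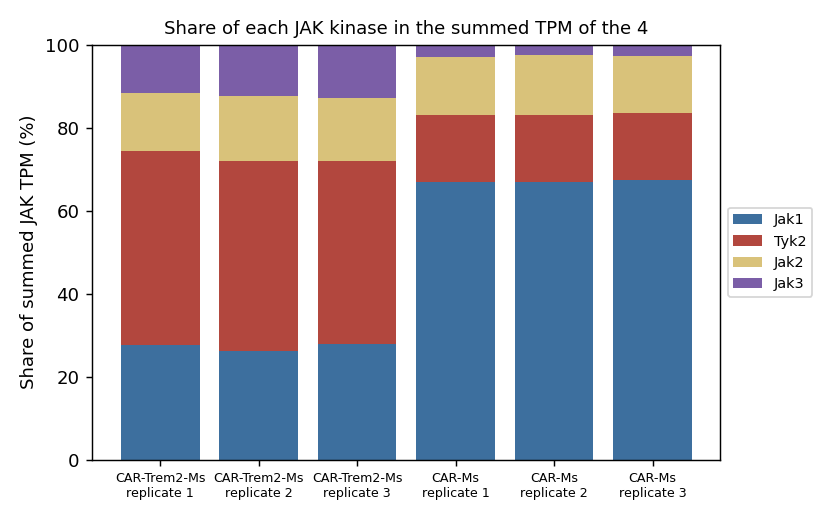
Share of Jak1, Tyk2, Jak2 and Jak3 in the summed TPM of these kinases (vertical axis, percent) in each sample, CAR-Trem2-Ms on the left. Jak1 holds 26.2% to 27.9% in the CAR-Trem2-Ms samples and 66.8% to 67.5% in the CAR-Ms samples.

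The order of levels, compared per length as TPM, also differed. In CAR-Trem2-Ms, Ifnar2 stood first at 111.8 ± 8.02 TPM and Tyk2 second at 35.3 ± 0.585 TPM. Jak1 followed at 21.1 ± 0.766, Ifnar1 at 18.9 ± 1.67, Ifngr2 at 15.1 ± 0.721, Ifngr1 at 14.3 ± 0.588, Jak2 at 11.6 ± 0.918 and Jak3 at 9.55 ± 0.623 TPM. The ranges of Jak1 and Ifnar1 overlapped, as did those of Ifngr2 and Ifngr1, and the other neighbours in that order were apart. In CAR-Ms, Ifnar2 stood first at 112 ± 9.41 TPM and Jak1 second at 96.2 ± 2.10 TPM. That rank depends on the length the authors used for each gene. By reads, Jak1 averaged 293.9 CPM and Ifnar2 97.2 CPM in CAR-Ms, with longest GENCODE transcripts of 4906 and 3047 bases. Scaled to these lengths, Jak1 would stand above Ifnar2 in CAR-Ms. Ifngr1 followed at 41.4 ± 2.56, Ifnar1 at 29.1 ± 1.24, Ifngr2 at 25.7 ± 1.12, Tyk2 at 23.1 ± 0.739, Jak2 at 20.1 ± 0.729 and Jak3 at 3.95 ± 0.337 TPM, with no overlap between neighbours. Ifnb1 came last in both groups, at 0.18 TPM in CAR-Trem2-Ms replicate 1 and 0 in every other sample.

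**Figure D4:**
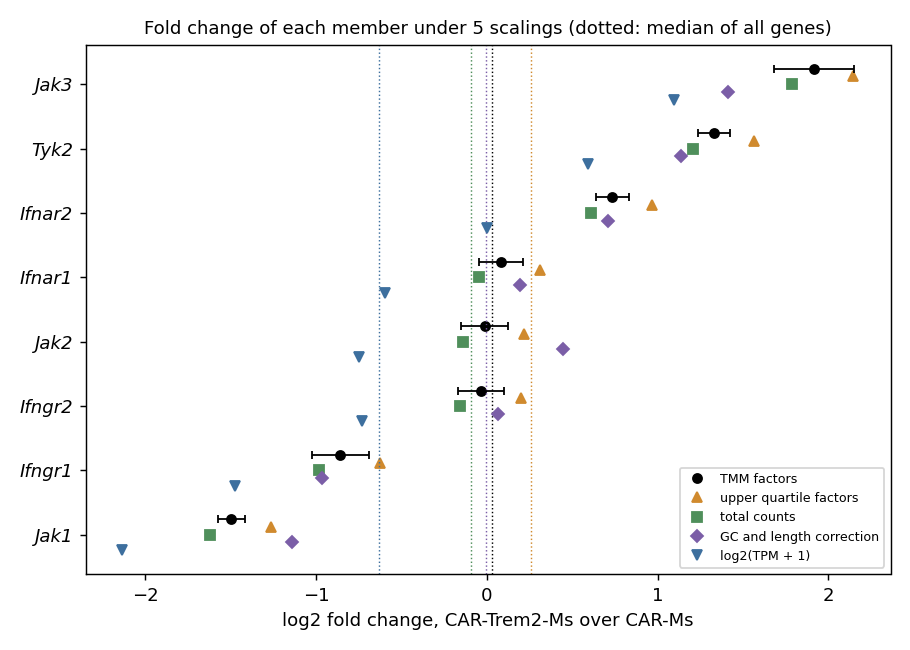
Log2 fold change of each member, CAR-Trem2-Ms over CAR-Ms (horizontal axis), under 5 scalings; bars on the TMM points are 95% intervals, and dotted lines are the median of all genes under the scaling of the same colour. Jak1 and Ifngr1 lie below 0 and Tyk2 and Jak3 above 0 on each scale, Ifnar2 lies at 0 on log2(TPM + 1), and Ifnar1, Ifngr2 and Jak2 change sign with the scale.

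Read against the median of all genes, the called members kept their side. Over the 17 alternatives Jak1 lay 1.14 to 1.55 below it on the log2 scale and Ifngr1 0.84 to 0.96 below it, while Jak3 lay 1.42 to 1.95, Tyk2 1.14 to 1.32 and Ifnar2 0.63 to 0.75 above it. Ifnar1 ranged from -0.01 to 0.20, Ifngr2 from -0.10 to 0.07 and Jak2 from -0.12 to 0.45 around it. On log2(TPM + 1) itself, with limma, 7 of 8 members were called, against 81.6% of all genes. Of these 2 were higher, where 17.5% of all genes were, and 5 lower, where 64.2% were.

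The genes around the receptors were described with lists of their own. Of 36 other receptor chains that signal through JAK kinases, 20 could be tested. Of these, 10 rose and 4 fell, while 6 missed the threshold. Over all genes 81.1% were called, 40.9% higher and 40.1% lower, so the count does not set these chains apart. Their median log2 fold change was 0.34, but 0.10 without CAR-Trem2-Ms replicate 2 and 0.52 without CAR-Trem2-Ms replicate 3. Csf2ra, the GM-CSF-binding chain of a receptor that uses Jak2, averaged 92.6 ± 2.74 CPM in CAR-Trem2-Ms and 12.4 ± 1.36 CPM in CAR-Ms, a rise of 7.46-fold. Csf3r, the G-CSF receptor, rose 5.35-fold to 11.4 ± 0.933 CPM in CAR-Trem2-Ms, against 2.13 ± 0.659 CPM in CAR-Ms. Crlf2, the receptor chain for TSLP, rose 3.60-fold to 43.2 ± 1.50 CPM, against 11.98 ± 0.517 CPM in CAR-Ms. Measured on log2(TPM + 1), 3 of 16 were higher and 8 lower (17.5% and 64.2% of all genes), and the median was -0.48, against -0.63 over all genes.

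Downstream, 4 of the 7 tested STAT genes and Irf9 rose and 2 fell, near the 81.1% of all genes that were called. Their median was 0.48, but -0.38 on log2(TPM + 1), where that of all genes was -0.63. Stat2, a part of the type I interferon factor with Irf9, rose 5.83-fold to 62.2 ± 3.05 CPM in CAR-Trem2-Ms, against 10.7 ± 0.839 CPM in CAR-Ms. Stat3, the factor of interleukin 6 and 10 signalling, averaged 82.5 ± 6.73 CPM in CAR-Trem2-Ms and 252 ± 5.40 CPM in CAR-Ms and fell by 1.62 on the log2 scale, beside Jak1.

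Negative regulators were mixed. Of 21 tested, 10 rose and 6 fell, close to the 81.1% of all genes called, with a median of 0.07. It turned to -0.05 with total counts (-0.10 over all genes), -0.01 without CAR-Ms replicate 1 and -0.04 without CAR-Ms replicate 3. On log2(TPM + 1) it was -0.59, against -0.63 over all genes. That scale gave 3 of 20 higher and 15 lower (17.5% and 64.2% of all genes). Usp18, an interferon-induced protein that displaces Jak1 from Ifnar2, averaged 21.5 ± 1.75 CPM in CAR-Trem2-Ms and 0.575 ± 0.208 CPM in CAR-Ms, a rise of 36.5-fold (adjusted p = 5.2e-18). Pias4, a SUMO ligase that restrains STAT signalling, rose 2.76-fold to 46.6 ± 5.98 CPM, against 16.9 ± 1.53 CPM in CAR-Ms. Socs7, of the SOCS family, averaged 30.6 ± 3.49 CPM in CAR-Trem2-Ms and 76.3 ± 0.354 CPM in CAR-Ms and fell by 1.32.

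Of 25 sensors, adaptors, kinases and factors that lead to Ifnb1, all were tested. Of these, 13 rose, 5 fell and 7 missed the threshold, and their median was 0.32. Over all genes 81.1% were called, 40.9% higher and 40.1% lower. Total counts gave 12 higher and 8 lower, where 4154 of all 11402 genes were called higher and 5096 lower. On log2(TPM + 1), 7 of 24 were higher and 13 lower (17.5% and 64.2% of all genes), at a median of -0.31 against -0.63 over all genes. Irf7, the factor that amplifies interferon production, averaged 72.0 ± 4.76 CPM in CAR-Trem2-Ms and 2.36 ± 0.179 CPM in CAR-Ms, a rise of 30.4-fold. Dhx58 and Rigi, a regulator and a sensor of viral RNA, rose 16.4-fold and 10.1-fold. They stood beside the single read of Ifnb1 in the same CAR-Trem2-Ms libraries.

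**Figure D5:**
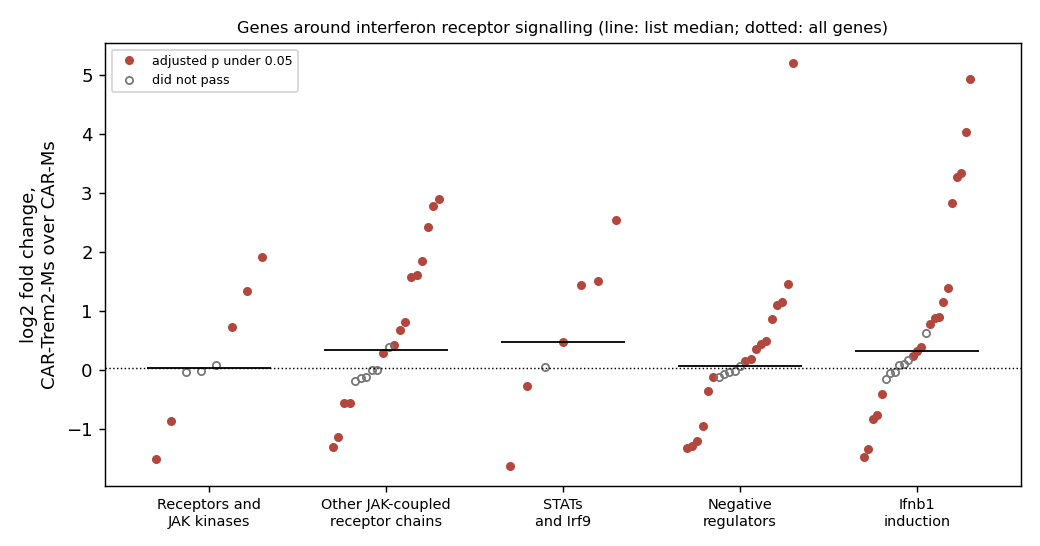
Log2 fold change, CAR-Trem2-Ms over CAR-Ms (vertical axis), of every tested gene of 5 lists; filled points had an adjusted p under 0.05, solid lines are list medians and the dotted line is the median of all genes. The highest points are Usp18 at 5.19 among negative regulators and Irf7 at 4.92 among genes of Ifnb1 induction. On log2(TPM + 1) the medians of all 5 lists lie below 0, as does the median of all genes at -0.63.

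Genes with a pattern like that of a member were found by the root mean square distance between log2 CPM values, centred on each gene's mean over the 6 samples, so that a likeness mostly reflects the difference between groups. Nearest to Jak1 were Gabpa (0.02) and Rfwd3 (0.03). Nearest to Tyk2 were Rps7 and Trem2 (both 0.03), and nearest to Jak3 were Dnase1l1 (0.04) and Slfn8 (0.05). Ifnar2 was followed by Wbp1 (0.02) and Clec5a (0.04), and Ifngr1 by Rasgef1b and Afdn (both 0.03). The members that did not pass were nearest to Tank and Gpatch4 (Ifnar1), Ddx47 (Ifngr2), and Fastkd3 and Slc38a10 (Jak2), at 0.01 to 0.03. The median distance over all genes was 0.37 to 0.95, depending on the member.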

How the data were processed

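Per the file headers, the deposited table gives raw read counts per gene and TPM for each sample. Per the file headers it also holds the authors' group means of TPM, their log2 fold change and their p-value with its adjusted form; no source used here names the tool behind these. The authors' fold change equalled the log2 ratio of the TPM means. The submitters' processing notes name the build mm10 and the tools HISAT2, StringTie 1.3.1, Bowtie2 2.2.8 and fastp 0.18.0; which tool counted reads, whether by strand, and on which annotation is not given in the sources read here. Gene positions come from GENCODE M21 (GRCm38).

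Counts were tested with edgeR 4.0.16 (quasi-likelihood test, TMM factors, filterByExpr, 11402 genes) in R 4.3.3, with p-values adjusted over all tested genes by the Benjamini-Hochberg method. The standard error is the fold change over the root of its F statistic. TPM was tested with limma 3.58.1 on log2(TPM + 1) where TPM reached 1 in 3 samples or more; such fold changes understate changes of low genes. Alternatives were RLE, upper quartile and total-count scaling, 2 other filters, limma-voom, DESeq2 1.42.0, a stricter threshold of 0.01, a replicate block, leaving out mitochondrial genes or each sample and, added after seeing the data, an offset for GC content and transcript length. The members and lists were chosen with earlier results of these data known. All members are named; other lists name up to 3 changed genes of at least 50 mean reads with the largest change, some genes that these rules name are not reported here, and Il2rg, Ifng, Irf9, the neighbours on chromosome 16, and marker genes were named after their values were seen. The edgeR step was tested on simulated counts. Motif letters were revised after matches had been seen: longer forms of the response element and the NF-kB site were searched first, and under those Jak3 held no match. Replicate pairs differed by 2.19 to 3.34 chi-square per degree of freedom, above sampling noise.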

Additional observations from a re-analysis of the deposited data

How the results depend on the processing

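Jak1, Tyk2, Jak3 and Ifngr1 kept direction and call under all 17 alternatives, and Ifnar2 under 16. Upper quartile factors gave Ifnar1 0.31, Ifngr2 0.20 and Jak2 0.22 (log2), all called higher. Under these factors 5714 of 11402 genes were called higher and the median of all genes was 0.26. Ifngr2 and Jak2 lay below that median and Ifnar1 0.05 above it. Total counts gave Ifnar1 -0.0435 and Ifngr2 -0.16, the second called lower, as were 5096 of 11402 genes. The medians there were -0.0904 for the members and -0.0533 for negative regulators, against -0.0955 for all genes. The GC and length correction, added after seeing the data, gave Ifnar1 0.19, Ifngr2 0.0676 and Jak2 0.44. On log2(TPM + 1), Ifnar1 was -0.59, Ifnar2 -0.0015, Ifngr2 -0.73 and Jak2 -0.75. There 1890 genes were called higher and 6946 lower, against 4668 and 4577 in edgeR with TMM. List medians on that scale were -0.66 for members, -0.48 for other receptor chains, -0.38 for STATs, -0.59 for negative regulators and -0.31 for Ifnb1 induction. The median of all genes there was -0.63, with the members slightly below it and the other lists above it. The cause of the differences between scales was not tested, beyond the shift of all genes under each scale. With no filter, the median of negative regulators was -0.0057. Leaving out each sample gave 0.0165 to 0.1481 for Ifnar1, -0.0628 to 0.0021 for Ifngr2, -0.0537 to 0.0219 for Jak2, 0.0978 to 0.5167 for the median of other receptor chains and -0.0381 to 0.161 for the median of negative regulators, which was below 0 without CAR-Ms replicate 1 or 3. The log2 difference in ratio between groups had the same sign from counts and from TPM for all 5 pairs. No ratio was computed after the GC and length correction, so its effect on their size is not given. Under it the log2 fold change was -1.14 for Jak1, 1.14 for Tyk2 and 1.41 for Jak3, against -1.50, 1.33 and 1.91 with TMM factors.

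With the replicate number as a block, 9188 genes were called, 9162 of them also among the 9245 called without it; Jak1 stood at -1.50, and no member's call changed. Deviations of same-numbered samples correlated at -0.03 to 0.03 over genes, and those of differently numbered samples at -0.06 to 0.03. No pairing by number was thus seen, but 3 samples a group cannot exclude one. Having 3 samples a group limits precision, and the read totals limit what can be said of Ifnb1 and the other ligands.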
